A study of Mus musculus with 16 samples.

Results

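Heat shock proteins and their DnaJ partners are the chaperones that help proteins fold, keep unfolded ones from clumping and hand spent ones to degradation. The genes described here are those whose symbol starts with Hspa, Hspb, Hspd, Hspe, Hsph, Hsp90 or Dnaj and whose mean count over the 16 libraries was at least 50, pseudogenes left out. These were 65 of the 24454 genes in the count table, and all 65 were among the 15487 genes tested. Of the 74 genes with such a symbol, 9 fell below the minimum (*Dnajb3*, *Dnajb7*, *Dnajb8*, *Dnajb13*, *Dnajc5b*, *Dnajc5g*, *Dnajc6*, *Dnajc22* and *Hspb9*), most of them known from testis or nervous tissue. The gene just inside the minimum, *Dnajc17*, had a mean count of 169, and the one just outside, *Dnajc6*, had 17.3. By family, there were 6 small heat shock proteins, 11 Hsp70 proteins, 3 Hsp110 proteins, 3 Hsp90 proteins, the 2 subunits of the mitochondrial chaperonin, 4 DnaJ proteins of type A, 9 of type B and 24 of type C, and 3 genes that share the name but not the fold.

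The RNA came from the *gastrocnemius*, a muscle of the calf, of mice aged 3 months, which formed 4 groups. HSALR mice (line LR20b, homozygous) carry a human skeletal actin transgene with a long CTG repeat, expressed in skeletal muscle, on the FVB/N background, and are a model of myotonic dystrophy type 1 in which the repeat RNA is made in muscle fibres and not in other tissues. The control mice were FVB/N without the transgene. Mice of each genotype received either vehicle or AICAR, an activator of AMP-activated protein kinase, at 500 mg/kg for 7 days, which gave 3 control vehicle, 3 control AICAR, 5 HSALR vehicle and 5 HSALR AICAR mice, 1 library each. The treatment named CTRL in the sample labels is taken as vehicle from the design text of the series.

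In the cytosol, Hsp70 grips exposed hydrophobic stretches of a client protein in a cycle driven by ATP. A DnaJ protein (Hsp40) brings the client and starts ATP hydrolysis, an exchange factor such as Hsp110 releases it, and Hsp90 acts on late folding states. Small heat shock proteins need no ATP and hold unfolding proteins in a state from which they can be refolded, and in muscle they are abundant and bind actin, filamin and the Z-disc. Under stress, heat shock factor 1 drives the inducible members through heat shock elements, repeats of the 5 bases NGAAN in alternating orientation, while the endoplasmic reticulum and mitochondria have their own members under other stress pathways.

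The 16 libraries held between 64890014 and 81987726 counts, with scaling factors (TMM, trimmed mean of M values) from 0.906 to 1.06. Values below are normalised CPM, read counts scaled by the library size and its TMM factor. The summed level of 7 muscle fibre markers was between 107500 and 159300 CPM, so all libraries were muscle. Genes of the epidermis were found in 6 of them: *Krt14*, a keratin of the basal epidermis, was above 1 CPM in 4 of 5 HSALR vehicle mice, in 1 of 3 mice of each control group and in 0 of 5 HSALR AICAR mice, and the summed level of 8 epidermis markers ranged from 0.242 to 187 CPM. All 8 of these markers fell with AICAR in HSALR. Counts are therefore also given without these 6 libraries, which leaves S451 as the sole HSALR vehicle mouse, assumed there to vary like mice of the other groups. Each group serves in more than 1 comparison, so the comparisons below share mice and are not independent of each other.

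The 2-unit form of the heat shock element (GAANNTTC or TTCNNGAA, where N is any base) was searched on both strands of the RefSeq promoter windows of build GRCm38.p6, which run from 250 bases before to 50 bases after the annotated start of transcription. A window was found for 53 of the 65 genes, and 15 of these (28.3%) held the 2-unit letters, against 17% of all genes with a window. The 12 genes without one were *Hspb2*, *Hspa8*, *Hspa9*, *Hspa13*, *Hsp90aa1*, *Hsp90ab1*, *Dnajc2*, *Dnajc5*, *Dnajc11*, *Dnajc12*, *Dnajc18* and *Dnajc30*. The 3-unit form, which adds a further unit with the same spacing and so contains the 2-unit form, was in 4 of 53 (7.55%), against 0.662% of all genes. Shown here are stretches of the genes that the results turn on, written 5′ to 3′ on the strand of the gene, with the matching letters in capitals. The *Hspa1a* and *Hspa1b* windows were equal at 296 of 300 positions (98.7%), and the *Hspd1* and *Hspe1* stretches are the same DNA read from opposite strands.
*Hspb1*, chr5:135887791-135887820, plus strand: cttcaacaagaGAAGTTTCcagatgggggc
*Hspb1*, chr5:135887811-135887840, plus strand: agatgggggcaGAACCTTCctggccccgcc
*Hspb8*, chr5:116422844-116422873, minus strand: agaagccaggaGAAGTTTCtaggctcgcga
*Hspa1a*, chr17:34972242-34972271, minus strand: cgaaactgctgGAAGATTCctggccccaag
*Hspa1b*, chr17:34959324-34959353, minus strand: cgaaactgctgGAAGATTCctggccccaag
*Hsph1*, chr5:149636351-149636380, minus strand: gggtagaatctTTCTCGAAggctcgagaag
*Hspd1*, chr1:55088053-55088082, minus strand: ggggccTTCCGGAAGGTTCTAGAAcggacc
*Hspe1*, chr1:55088053-55088082, plus strand: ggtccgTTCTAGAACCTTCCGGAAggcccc
*Dnaja4*, chr9:54699458-54699487, plus strand: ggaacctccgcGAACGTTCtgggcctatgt
*Dnajb6*, chr5:29735844-29735872, plus strand: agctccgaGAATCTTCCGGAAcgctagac
The first capital letter lies at -117 and -97 from the annotated start in *Hspb1*, at 3 in *Hspb8*, at -104 in *Hspa1a* and *Hspa1b*, at -144 in *Hspd1* and at -89 in *Hspe1*. A match is a description of letters and not a shown binding site.

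Compared with vehicle-treated controls, 27 of the 65 chaperone genes rose and 5 fell in vehicle-treated HSALR mice at an adjusted p under 0.05, and 33 did not pass the test. Tests are from the quasi-likelihood fit of edgeR over all 15487 genes, with p-values adjusted by the method of Benjamini and Hochberg, and fold changes are given on the log2 scale with their standard error (SE). Over all genes tested, 15.4% rose and 11.5% fell in this comparison (26.9% in all). In AICAR-treated mice the genotype comparison gave 13 higher and 5 lower, where 12.2% of all genes rose and 9.64% fell (21.8% in all). The median log2 fold change of the 65 genes was 0.17 with vehicle and 0.05 with AICAR, and that of all genes was 0.01 and 0.00.

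With AICAR in HSALR, 19 of 65 were lower and 10 higher and 36 did not pass the test in edgeR, where 13% of all genes fell and 13.7% rose (26.6% in all). With scaling by library size alone this split was 23 lower and 6 higher, and with any 1 mouse left out it was 15 to 19 lower and 8 to 12 higher. Over the 5 comparisons edgeR made 91 calls of chaperone genes, and DESeq2 made all 91 and 13 more. In control mice AICAR gave 7 higher and 3 lower, where 8.4% of all genes rose and 4.77% fell (13.2% in all). The control counts were 2 to 4 higher and 1 to 3 lower when any 1 mouse was left out, and their split turned with the scaling, to 3 higher and 5 lower with upper-quartile scaling and to 2 higher and 3 lower with library size. The median log2 fold change of the 65 genes was -0.04 in HSALR and 0.07 in controls, and that of all genes was -0.02 and -0.01.

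Groups whose ranges did not overlap gave a similar order. With vehicle, all HSALR mice were above all control mice for 24 genes and below them for 7, where 16.8% and 13% of all genes were so placed (29.7% in all). After AICAR these were 21 and 7, where the background was 15% and 11.6% (26.5% in all). For AICAR in HSALR, 8 genes were apart upwards and 13 downwards, where the background was 10.2% and 7.48% (17.7% in all). For AICAR in controls, 17 were apart upwards and 7 downwards, near the background of 18.1% and 15% (33.1% in all). Without the 6 libraries with *Krt14*, which leaves S451 as the 1 HSALR vehicle mouse, in a fit that called 904 genes for genotype with vehicle and 899 for AICAR in HSALR, 11 chaperone genes were higher and 0 lower with vehicle, and 12 were lower and 2 higher with AICAR in HSALR. For AICAR in controls, with 697 genes called, edgeR called 0 chaperone genes, 16 of them having an unadjusted p under 0.05.

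**Figure D1:**
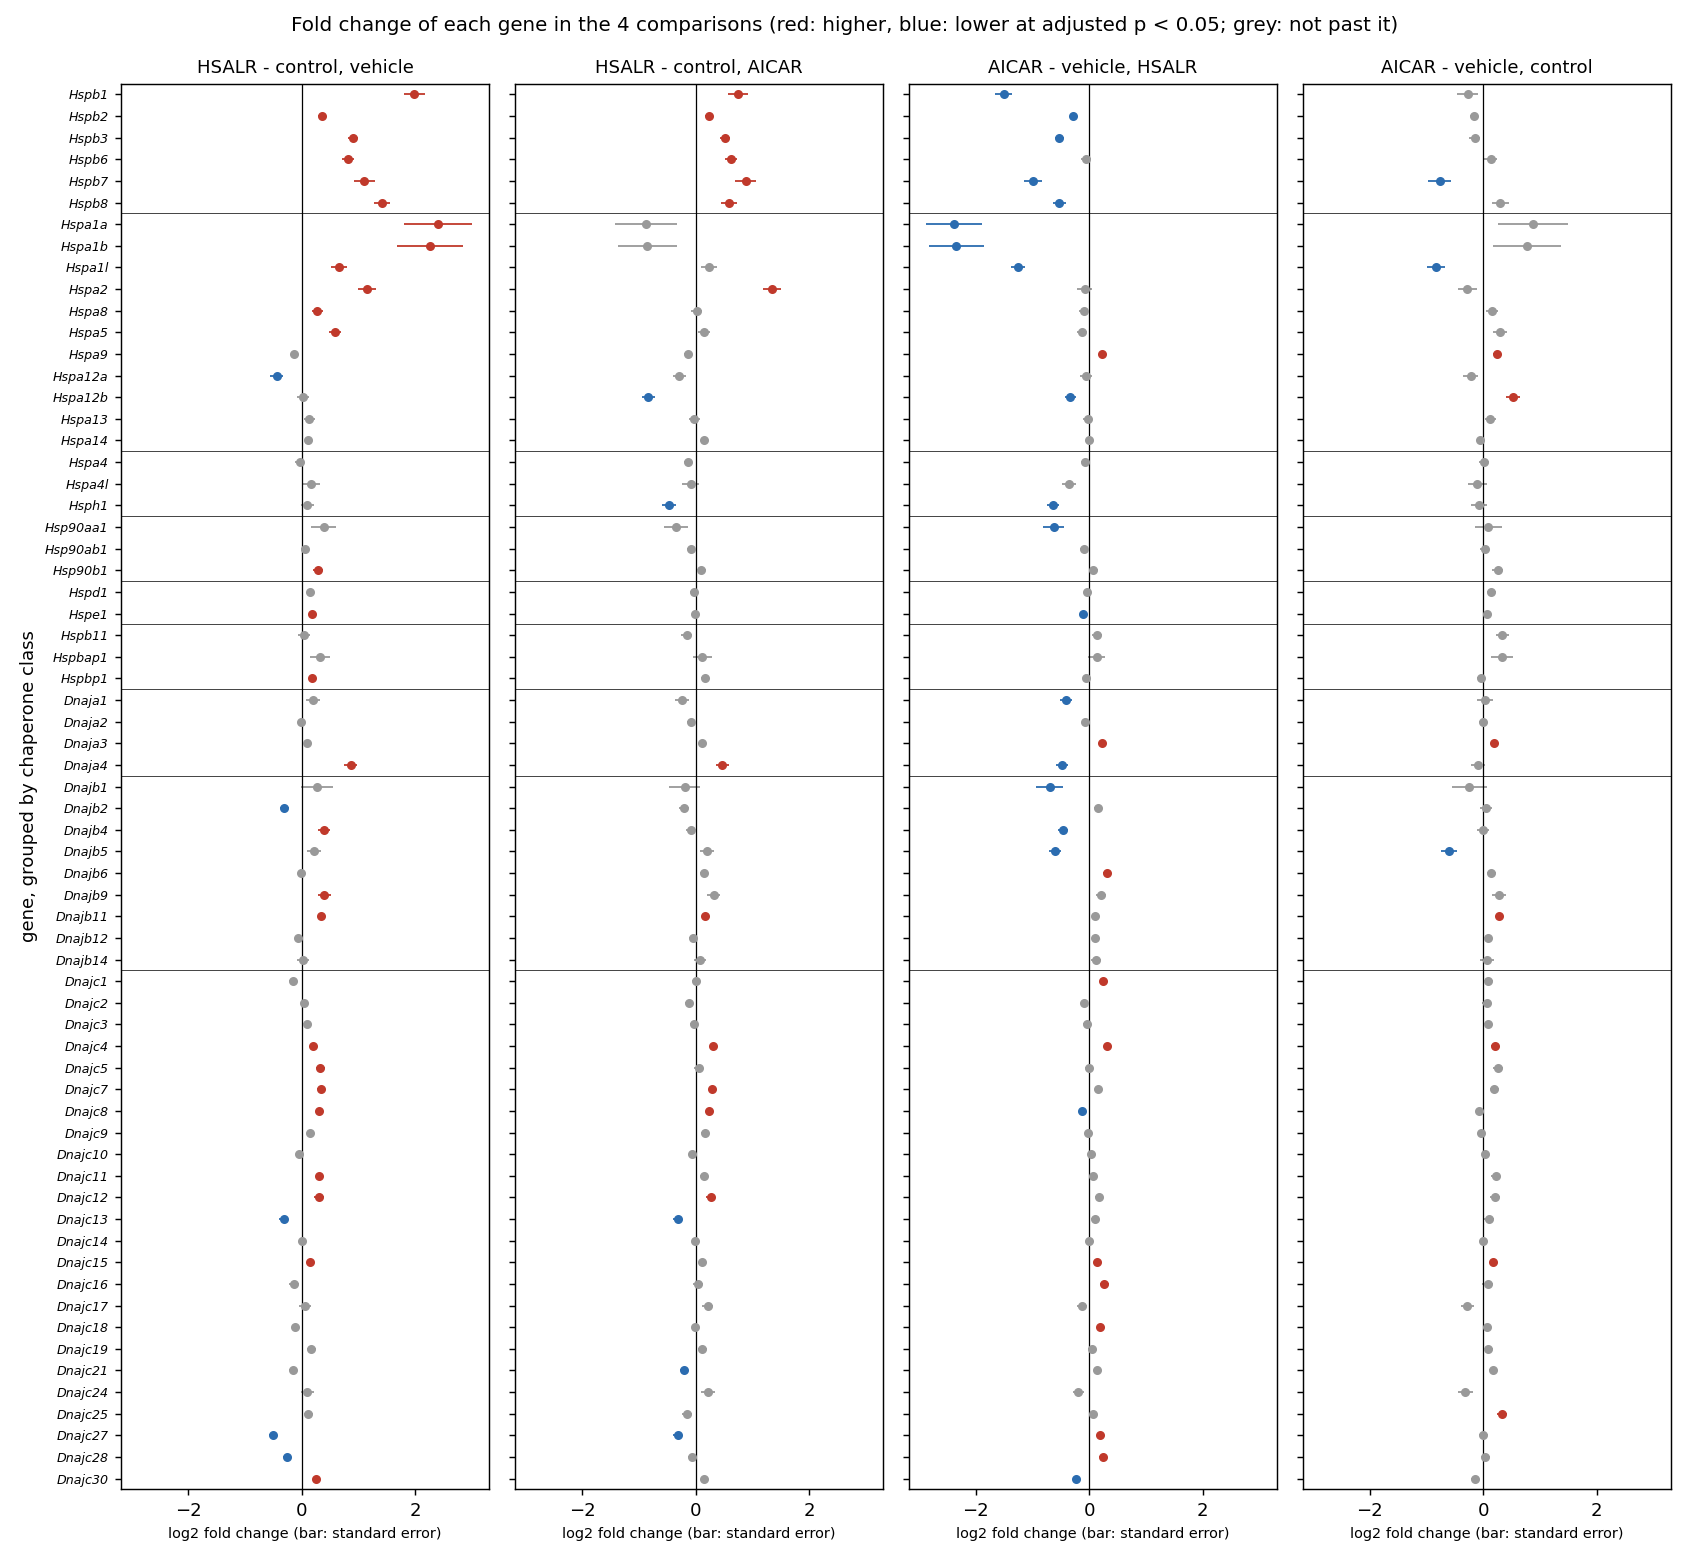
Log2 fold change with SE (x axis) of the 65 chaperone genes (y axis, by family) in 4 panels, for HSALR against control with vehicle and with AICAR and for AICAR against vehicle in HSALR and in control mice; red and blue points passed an adjusted p under 0.05 as higher or lower, grey points did not. The 6 small heat shock proteins stand to the right in both genotype panels, and 5 of them to the left in the panel of AICAR in HSALR.

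By compartment the counts are read against the shares of all genes, which were 15.4% higher and 11.5% lower for genotype with vehicle and 13.7% higher and 13% lower for AICAR in HSALR. Of 26 cytosolic genes, 15 rose and 1 fell in HSALR with vehicle (median log2 fold change 0.35). In HSALR treated with AICAR 15 fell and 1 rose (median -0.44). Of 9 genes assigned to the endoplasmic reticulum, 4 rose and 0 fell in HSALR with vehicle, and 1 rose and 0 fell with AICAR in HSALR. Of 9 mitochondrial genes, 4 rose and 1 fell in HSALR with vehicle, and 4 rose and 2 fell with AICAR in HSALR. The remaining 21 genes, which include *Hspa13*, *Dnajc14*, *Dnajc16*, *Dnajc18* and *Dnajc25*, were assigned to none of these compartments. Among them 4 rose and 3 fell in HSALR with vehicle, and 4 rose and 2 fell with AICAR in HSALR. The cytosolic counts ranged from 12 to 15 higher and from 13 to 16 lower in these 2 comparisons when any 1 mouse was left out, and without the *Krt14* libraries they were 11 higher and 12 lower. Without those libraries edgeR kept none of the calls of the mitochondrial genes or of those of the endoplasmic reticulum in these 2 comparisons. The single genes that rose or fell in a set of 9 are at about the background share. The difference between compartments was not tested.

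The small heat shock proteins include the chaperone gene with the highest level per transcript length: in control vehicle mice *Hspb6* was at 583, *Hspb8* at 240.2 and *Hspb7* at 208 CPM per kilobase, beside 537 for *Hsp90ab1*, the constitutive Hsp90. All 6 rose in HSALR muscle with vehicle and all 6 with AICAR, and in both comparisons every HSALR mouse was above every control mouse. The shares of all genes that rose were 15.4% with vehicle and 12.2% with AICAR, and those without overlap upwards were 16.8% and 15%. Their median log2 fold change was 1.00 with vehicle and 0.60 with AICAR. The count stayed at 6 with vehicle and at 5 or 6 with AICAR when any 1 mouse was left out, and at 6 with each other scaling and with epidermis or slow fibre markers as a covariate. Without the *Krt14* libraries it was 5 with vehicle and 4 with AICAR.

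Some markers of fibre type and of other cells moved with genotype in the same vehicle-treated mice. Of 7 muscle fibre markers 2 were higher and 0 lower, with the fast myosin *Myh1* at 1.52 (SE 0.19, adjusted p = 4.08e-05) and *Acta1* at 0.31 (SE 0.08, adjusted p = 0.00786). Of 9 slow and oxidative fibre markers 1 was higher, the myoglobin gene *Mb* (0.79, adjusted p = 0.00272). The 3 lower ones were *Myh7* (-1.37, adjusted p = 0.0113), *Myl2* (-1.07, adjusted p = 0.0414) and *Atp2a2* (-0.92, adjusted p = 0.0373). The control S450 was the highest mouse for each, at 4812, 1451 and 2768 CPM. The other control vehicle mice were at 1506 and 1647, 523 and 476, and 1067 and 1150 CPM. HSALR vehicle mice ranged from 888 to 1243, 314 to 510 and 780 to 1138 CPM. The sum of the 9 was 12140 to 14200 CPM in HSALR, inside the 10150 to 20770 CPM of control vehicle mice. Of 3 satellite cell markers *Pax7* was higher (1.03, adjusted p = 0.00287). The sum of the 3 was 3.32 to 4.80 CPM in HSALR and 1.66 to 3.08 CPM in control vehicle mice. Of 5 macrophage markers *Cd68* (0.77, adjusted p = 0.00942) and *Csf1r* (0.47, adjusted p = 0.0149) were higher and 0 lower. The sums were 90.7 to 107 CPM in HSALR and 75.8 to 102 CPM in control vehicle mice. No marker of these 4 lists was at 0 in every mouse of a group. With AICAR in HSALR, 1 of 7 muscle fibre, 1 of 3 satellite cell and 2 of 4 fibroblast markers were lower. Of 5 macrophage markers 1 was higher and 1 lower there, where 13.7% of all genes were higher and 13% lower. For genotype with AICAR, 2 of 7 muscle fibre markers were higher and 1 lower. In that comparison 1 of 9 slow and oxidative fibre and 2 of 3 satellite cell markers were higher, and 1 of 4 Schwann cell markers was lower. The part of these cells and fibre types in the chaperone results was not tested.

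*Hspb1* (chr5:135887919-135889563), which encodes Hsp27, a stabiliser of actin filaments, showed the largest of these changes with vehicle. Its level was 41.4, 58.6 and 67.7 CPM in control vehicle mice and 247, 256, 216, 217 and 165 CPM in HSALR vehicle mice. After AICAR it was 45.1, 45.3 and 48.5 CPM in controls and 82.1, 68.0, 101, 74.8 and 62.5 CPM in HSALR mice. The lowest untreated HSALR mouse thus stood above the highest treated one, and the lowest treated HSALR mouse above the highest treated control. The log2 fold change of HSALR over control was 1.98 (SE 0.18, adjusted p = 2.54e-06) with vehicle, a fold of 3.94, and 0.75 (SE 0.17, adjusted p = 0.00702) with AICAR. AICAR lowered it in HSALR by a log2 change of -1.51 (SE 0.15, adjusted p = 7.13e-06), while in controls the change was -0.27 (SE 0.19, adjusted p = 0.376). In the HSALR vehicle mice *Krt14* was at 0.0835, 6.63, 32.2, 2.98 and 9.50 CPM in the same order of mice, and without the *Krt14* libraries the genotype change of *Hspb1* with vehicle was 2.30 (adjusted p = 0.00101) and its AICAR change in HSALR -1.67 (adjusted p = 0.00359).

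*Hspb8*, which works with the co-chaperone Bag3 in the autophagy of damaged filamin, was at 429.8, 445.8 and 433 CPM in control vehicle and 1268, 1269, 1215, 998 and 1065 CPM in HSALR vehicle mice. With AICAR it was 481, 523 and 609 CPM in controls and 852, 832, 1029, 627 and 695 CPM in HSALR mice. HSALR mice were above control mice under both treatments without overlap, whereas treated and untreated HSALR mice overlapped at 1 treated mouse. The log2 fold change was 1.42 (SE 0.14, adjusted p = 4.74e-06) for genotype with vehicle, 0.59 (SE 0.14, adjusted p = 0.00673) for genotype with AICAR and -0.53 (SE 0.12, adjusted p = 0.00378) for AICAR in HSALR.

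*Hspb7*, a small heat shock protein of heart and skeletal muscle that binds filamin C, ranged from 443 to 827 CPM in control vehicle mice (575 ± 218, mean ± SD, n = 3) and was at 1114, 1309, 1145, 1355 and 1257 CPM in HSALR vehicle mice. With AICAR it was 365, 360.1 and 289 CPM in controls and 659.7, 549.6, 732, 683 and 496 CPM in HSALR mice. Treated mice were below untreated ones in both genotypes. The log2 fold change of AICAR was -0.99 (SE 0.16, adjusted p = 0.000407) in HSALR and -0.77 (SE 0.20, adjusted p = 0.0216) in controls. The control call was lost without S449 or S450 (adjusted p from 0.0933 to 0.1), the change being -0.41 (adjusted p = 0.1) without S450. Over 18 alternatives the control change ranged from -0.92 to -0.38 and was not called in 5. The control mouse highest for *Hspb7*, S450 at 827 CPM, also had the highest summed level of 9 slow and oxidative fibre markers (20770 CPM, others 7222 to 15530) and was among the *Krt14* libraries; the part of these in the result was not tested. The genotype change was 1.10 (SE 0.19, adjusted p = 0.00052) with vehicle and 0.89 (SE 0.19, adjusted p = 0.00372) with AICAR.

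*Hspb6* (Hsp20), a partner of actin and of other small heat shock proteins, was the one member that did not pass the test for AICAR in HSALR, at -0.05 (adjusted p = 0.708). It ranged from 644 to 916 CPM in control vehicle, 815 to 901 in control AICAR, 1154 to 1542 in HSALR vehicle and 1278 to 1337 in HSALR AICAR mice. Its genotype changes were 0.81 (SE 0.10, adjusted p = 4.93e-05) with vehicle and 0.62 (SE 0.10, adjusted p = 0.000662) with AICAR. Thus the treated HSALR mice lay inside the range of the untreated ones and above both control groups.

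*Hspb2*, known to bind the protein kinase DMPK, and *Hspb3*, its partner in muscle, also rose. *Hspb3* was at 22.2, 20.4 and 27.1 CPM in control vehicle and 42.6, 37.8, 43.1, 45.7 and 48.2 CPM in HSALR vehicle mice, and at 21.2, 20.6 and 21.2 and 27.9, 31.1, 32.3, 29.1 and 30.6 CPM with AICAR. The order of the 4 groups was control, treated HSALR and untreated HSALR, with no overlap between the HSALR groups. Its changes were 0.90 (SE 0.09, adjusted p = 4.99e-06) and 0.52 (SE 0.09, adjusted p = 0.000803) for genotype and -0.53 (SE 0.08, adjusted p = 0.000182) for AICAR in HSALR. *Hspb2* changed by 0.35 (SE 0.06, adjusted p = 0.000471) and 0.23 (SE 0.06, adjusted p = 0.0118) for genotype, the latter lost without S449 (0.20, adjusted p = 0.053), and by -0.28 (SE 0.05, adjusted p = 0.000886) for AICAR in HSALR. *Hspb2* overlaps *Cryab*, *Hspb3* overlaps *Gm34586*, *Hspb6* overlaps *Lin37* and *Gm38670* and *Hspb8* overlaps *Gm36841* in the annotation, and the use of strand in the counting is not given in the sources used here, so their reads may be shared.

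**Figure D2:**
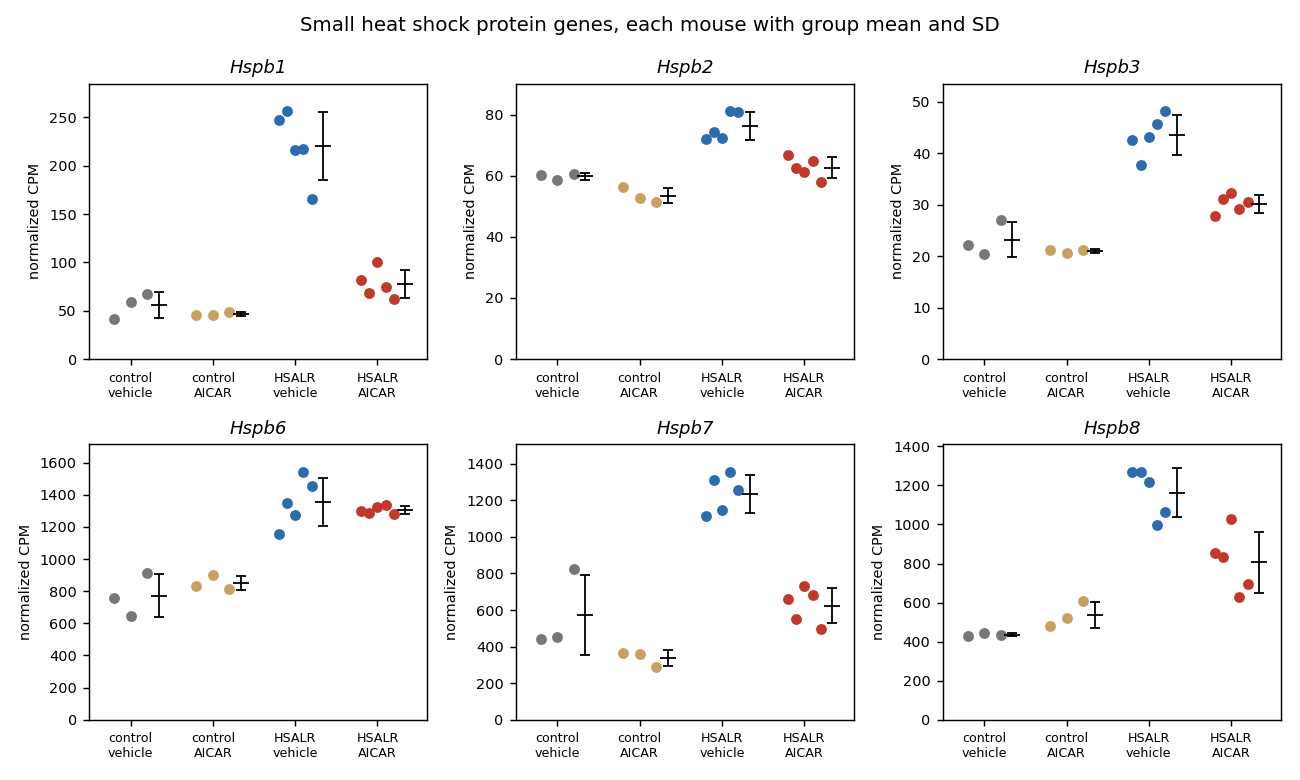
CPM of the 6 small heat shock proteins (y axis, from 0) in each of the 16 mice, by group (x axis), with the mean and SD of each group. In all 6 panels every HSALR mouse is above every control mouse of the same treatment; for *Hspb1*, *Hspb2*, *Hspb3* and *Hspb7* every HSALR AICAR mouse is below every HSALR vehicle mouse.

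*Hspa1a* (chr17:34969359-34972156, minus strand) and its neighbour *Hspa1b* encode the stress-inducible Hsp70, and their coding sequences are nearly identical, so the split of reads between them is uncertain. *Hspa1a* was at 4.48, 9.26 and 10.9 CPM in control vehicle mice and at 101, 51.4, 31.8, 17.1 and 16.0 CPM in HSALR vehicle mice. After AICAR it was at 7.55, 11.8 and 25.9 CPM in controls and 5.92, 6.00, 7.90, 12.8 and 8.81 CPM in HSALR mice. The HSALR vehicle mice were above the other HSALR mice and the vehicle controls, but they spread over a range from 16.0 in S459 to 101 in S451. *Hspa1b* followed, at 10.0, 19.0 and 22.6 CPM in control vehicle, 195, 93.5, 59.2, 34.1 and 32.1 in HSALR vehicle, 14.8, 24.1 and 49.6 in control AICAR and 12.5, 12.2, 15.5, 24.1 and 17.5 CPM in HSALR AICAR mice.

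For *Hspa1a* the log2 fold change was 2.40 (SE 0.61, adjusted p = 0.0085) for genotype with vehicle and -2.39 (SE 0.50, adjusted p = 0.00265) for AICAR in HSALR, and for *Hspa1b* 2.26 (SE 0.58, adjusted p = 0.00926) and -2.34 (SE 0.48, adjusted p = 0.00232). After AICAR the genotypes did not pass the test, at -0.87 (adjusted p = 0.272) and -0.85 (adjusted p = 0.259). The size was smaller without S451: with vehicle the genotype change was 1.81 (adjusted p = 0.0148) without S451 for *Hspa1a* and 1.66 (adjusted p = 0.0153) without S451 for *Hspa1b*, and the AICAR change of *Hspa1b* was -1.74 (adjusted p = 0.00516) without S451. The *Hspa1b* genotype call was lost without S445 (1.99, adjusted p = 0.0524). The ratio of *Hspa1a* to *Hspa1b* was 0.520 in HSALR vehicle and 0.471 in control vehicle mice (geometric means), which did not pass an exact two-sided permutation test after adjustment (p = 0.0357, the smallest possible being 0.0179, and adjusted p = 0.300 over 12 such tests of 3 ratios). This was the only one of the 12 with an unadjusted p under 0.05, and none of the 12 ratio tests, which also covered *Hsp90aa1* to *Hsp90ab1* and *Hspd1* to *Hspe1*, had an adjusted p under 0.05. For AICAR in controls, with 3 mice against 3, the smallest possible p of this permutation test was 0.1, so these tests could not pass.

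*Hspa1l*, which encodes a Hsp70 best known from testis, starts beside *Hspa1a* on the opposite strand and had another pattern. It was at 19.3, 18.9 and 27.7 CPM in control vehicle and 14.1, 12.9 and 9.94 CPM in control AICAR mice. In HSALR it was at 37.0, 32.3, 31.2, 37.3 and 35.9 CPM with vehicle and 14.4, 14.2, 15.6, 16.5 and 11.7 CPM with AICAR. AICAR-treated mice were below untreated mice in both genotypes with no overlap, and HSALR mice were above control mice with vehicle alone. AICAR changed it by -1.26 (SE 0.12, adjusted p = 5.51e-06) in HSALR and -0.84 (SE 0.16, adjusted p = 0.0032) in controls. Over 18 alternatives the control change ranged from -0.94 to -0.54, and its call was lost without the *Krt14* libraries, at -0.68. Genotype changed it by 0.66 (SE 0.14, adjusted p = 0.00291) with vehicle and 0.24 (SE 0.14, adjusted p = 0.25) with AICAR.

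*Hspa2*, a Hsp70 of male germ cells that is also found in muscle, was higher in HSALR under both treatments. Its level was 8.24, 8.65 and 9.25 CPM in control vehicle and 12.9, 18.8, 18.2, 24.2 and 22.7 CPM in HSALR vehicle mice. With AICAR it was 7.98, 7.32 and 6.27 CPM in controls and 16.7, 16.7, 20.1, 19.0 and 18.8 CPM in HSALR mice. No control mouse reached 10 CPM and no HSALR mouse was below 12 CPM. The genotype change was 1.15 (SE 0.16, adjusted p = 8.66e-05) with vehicle and 1.35 (SE 0.16, adjusted p = 4.2e-05) with AICAR, while AICAR in HSALR gave -0.08 (adjusted p = 0.674). Without the *Krt14* libraries the call with vehicle was lost, at 0.61 (adjusted p = 0.0601). It overlaps *4930426I24Rik* in the annotation.

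Of the abundant housekeeping Hsp70 proteins, *Hspa8*, the constitutive cytosolic one, was at 335, 418 and 350.1 CPM in control vehicle and 483, 489.7, 459.6, 427 and 368 CPM in HSALR vehicle mice. These ranges overlapped, and its genotype change of 0.28 (SE 0.10, adjusted p = 0.0496) was lost without S445, S450, S451, S452, S453 or S458 (adjusted p from 0.0559 to 0.211); the gene also hosts small nucleolar RNAs. *Hspa5*, which encodes BiP, the Hsp70 of the endoplasmic reticulum, was at 212, 248 and 213 CPM in control vehicle and 288, 386, 375, 328 and 304 CPM in HSALR vehicle mice, without overlap. Its change was 0.58 (SE 0.11, adjusted p = 0.000939) with vehicle and 0.15 (SE 0.11, adjusted p = 0.314) with AICAR, where treated controls stood at 269, 283 and 276 CPM. Without the *Krt14* libraries the call with vehicle was lost, at 0.32 (adjusted p = 0.315), and *Hspa5* shares reads with the overlapping *Rabepk* if strand was not used. *Hspa9*, which encodes mortalin, the Hsp70 of the mitochondrial matrix, moved with AICAR instead: from 604, 660.4, 609, 614 and 632 to 701, 697, 748, 809 and 707 CPM in HSALR mice, where the groups did not overlap, and from 714, 635 and 699.6 to 764, 810.2 and 846 CPM in controls. Its AICAR change was 0.23 (SE 0.05, adjusted p = 0.00587) in HSALR and 0.24 (SE 0.07, adjusted p = 0.0354) in controls, the latter lost without S445, S446, S448, S449 or S450 (adjusted p from 0.0517 to 0.129).

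*Hspa12b*, a distant Hsp70 relative that is known from endothelial cells, moved in opposite directions with AICAR in the 2 genotypes. It was at 13.7, 12.5 and 12.1 CPM in control vehicle and rose to 19.6, 17.9 and 17.6 CPM in control AICAR mice (0.52 (SE 0.12, adjusted p = 0.0126)). In HSALR it was at 14.8, 14.8, 12.0, 13.2 and 10.1 CPM with vehicle and 9.22, 9.67, 11.6, 11.0 and 10.1 CPM with AICAR, a fall of overlapping groups (-0.33 (SE 0.10, adjusted p = 0.02)) that was lost without S451, S452 or S454 (adjusted p from 0.0501 to 0.0564). Treated HSALR mice were all below treated controls (-0.83 (SE 0.11, adjusted p = 0.000106)), whereas with vehicle the genotypes overlapped (0.02 (adjusted p = 0.91)). The summed level of 4 endothelium markers was 234 to 261 CPM in control vehicle, 241 to 262 in control AICAR, 156 to 204 in HSALR vehicle and 195 to 213 CPM in HSALR AICAR mice. None of these markers was at 0 in every mouse of a group. By gene, 4 of 4 markers were lower in HSALR with vehicle, 2 of 4 were lower with AICAR and 2 of 4 rose with AICAR in HSALR. Their part in the *Hspa12b* result was not tested, and in bulk RNA fewer endothelial cells and less RNA per cell cannot be told apart. *Hspa12a* was lower in HSALR with vehicle (-0.44 (SE 0.11, adjusted p = 0.0103)), lost without S446 (-0.35, adjusted p = 0.0655), and *Hspa13* and *Hspa14* passed no test in edgeR.

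The difference between the AICAR effects of the genotypes was tested directly as an interaction. It passed for 2 of the 65 genes, both lower in HSALR, where 0.484% of all genes were lower and 0.207% higher (0.691% in all). These were *Hspb1* at -1.23 (SE 0.24, adjusted p = 0.03) and *Hspa12b* at -0.85 (SE 0.16, adjusted p = 0.0288). The *Hspb1* call was lost without S445, S446, S447, S448, S449, S452, S454, S455, S462 or S463 (adjusted p from 0.0508 to 0.0889), and that of *Hspa12b* without S445, S446, S447, S448, S450, S454 or S455 (adjusted p from 0.0508 to 0.0702). Without the *Krt14* libraries edgeR called 0 of all genes, 1485 having an unadjusted p under 0.05. *Hspb8* was at -0.83 (adjusted p = 0.0608), *Hspa1a* at -3.27 (adjusted p = 0.0758) and *Hspa1b* at -3.11 (adjusted p = 0.0784), so that none of these passed in edgeR. All 3 passed in DESeq2 (adjusted p = 0.00241, 0.00751 and 0.00842), as did *Hsph1* (-0.57, adjusted p = 0.0435, and 0.135 in edgeR). In edgeR *Hspb8* also passed without S458 (adjusted p = 0.0482) or S460 (adjusted p = 0.00964), and *Hspa1a* and *Hspa1b* without S459 (adjusted p = 0.0458 and 0.0476).

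Of the Hsp110 exchange factors and the cytosolic Hsp90 genes, *Hsph1* and *Hsp90aa1* fell with AICAR in HSALR, and neither passed the test for genotype with vehicle. *Hsph1*, the inducible Hsp110, was at 85.9, 99.3 and 77.0 CPM in control vehicle and 111, 86.8, 98.6, 86.6 and 85.2 CPM in HSALR vehicle mice. With AICAR it was at 69.2, 78.6 and 102 CPM in controls and 61.5, 61.9, 61.9, 62.3 and 53.5 CPM in HSALR mice. The treated HSALR mice were below all 11 other mice. Its change was -0.64 (SE 0.10, adjusted p = 0.000492) for AICAR in HSALR and -0.47 (SE 0.12, adjusted p = 0.0115) for genotype with AICAR, the latter lost without S449 (-0.30, adjusted p = 0.086), while genotype with vehicle gave 0.10 (adjusted p = 0.586). *Hspa4*, the constitutive Hsp110, and *Hspa4l* passed no test in edgeR, with -0.08 (adjusted p = 0.4) and -0.35 (adjusted p = 0.0503) for AICAR in HSALR. *Hspa4l* passed for AICAR in HSALR in DESeq2 (adjusted p = 0.0336), and in edgeR without S458 or S459 (adjusted p from 0.0258 to 0.0316). It also passed without the *Krt14* libraries, at -0.79 (adjusted p = 0.0102), where its genotype change with vehicle also passed, at 0.73 (adjusted p = 0.0184).

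*Hsp90aa1*, the inducible cytosolic Hsp90, was at 101, 73.9, 66.5, 45.9 and 42.1 CPM in HSALR vehicle and 40.2, 36.7, 47.7, 45.8 and 42.7 CPM in HSALR AICAR mice, beside 41.8, 53.9 and 55.8 CPM in control vehicle and 50.3, 55.1 and 56.1 CPM in control AICAR mice. The HSALR groups overlapped, and genotype with vehicle gave 0.38 (adjusted p = 0.209). The AICAR change of -0.63 (SE 0.19, adjusted p = 0.0211) was lost without S451 or S455 (adjusted p from 0.0527 to 0.0536), and the change was -0.42 (adjusted p = 0.0536) without S451. *Hsp90ab1* stayed between 1140 and 1524 CPM and passed no test in edgeR. *Hsp90b1*, which encodes GRP94, the Hsp90 of the endoplasmic reticulum, was at 154, 189 and 155 CPM in control vehicle and 205, 224, 212, 203 and 170.1 CPM in HSALR vehicle mice, an overlapping change of 0.29 (SE 0.09, adjusted p = 0.0238) that was lost without S445, S450 or S452 (adjusted p from 0.0639 to 0.12).

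In HSALR vehicle mice 3 of the inducible genes shared an order of mice. *Hspa1a*, *Hspa1b* and *Hsp90aa1* were each highest in S451, then in S452, S453, S458 and S459, with *Hsp90aa1* at 101, 73.9, 66.5, 45.9 and 42.1 CPM in that order. S451 was also the highest of its group for *Hsph1* (111 CPM), *Dnajb1* (27.9 CPM), *Hspa4l* (20 CPM) and *Dnaja4* (247 CPM). For *Hspb1* and *Hspb7* it was not: S452 was highest for *Hspb1* and S458 for *Hspb7*. S451 was also the one mouse of its group with *Krt14* under 1 CPM, so without the *Krt14* libraries it alone stood for HSALR vehicle and was assumed to vary like the other groups. In that fit the genotype change with vehicle was 3.87 (adjusted p = 0.00899) for *Hspa1a* and 1.07 (adjusted p = 0.00691) for *Hsp90aa1*, and the AICAR change in HSALR was -3.61 (adjusted p = 0.00492) and -1.25 (adjusted p = 0.00295). Other genes lost their call there: of 32 chaperone genes called for genotype with vehicle 9 kept it and 23 lost it. Of 29 called for AICAR in HSALR 12 kept it and 17 lost it, and of 10 called for AICAR in controls 0 kept it in edgeR. After AICAR 14 of 18 genotype calls were kept, and no called fold change turned in sign.

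Some of the lost calls were also smaller in size by over 1.5 times in the fit without the *Krt14* libraries. For genotype with vehicle these were 11 genes, *Hspa2*, *Hspa5* and *Dnajc28* with the values given beside them and *Hspbp1*, *Dnajb2*, *Dnajb9*, *Dnajb11*, *Dnajc4*, *Dnajc7*, *Dnajc12* and *Dnajc15*, which ranged from -0.18 in *Dnajb2* to 0.23 in *Dnajb11*. For AICAR in HSALR they were 4 genes, *Dnajc8*, *Dnajc16*, *Dnajc27* and *Dnajc28*, while 8 were larger by over 1.5 times: *Hspa1a*, *Hspa1b*, *Hsp90aa1*, *Dnaja1*, *Dnaja4*, *Dnajb1*, *Hspa12b* and *Dnajc15*. *Hspb2* and *Hspb8* lost their AICAR calls in HSALR at -0.21 (adjusted p = 0.201) and -0.66 (adjusted p = 0.103), and *Hspb2* its genotype call with vehicle at 0.28 (adjusted p = 0.152). The part of the *Krt14* libraries in these results was not tested.

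**Figure D3:**
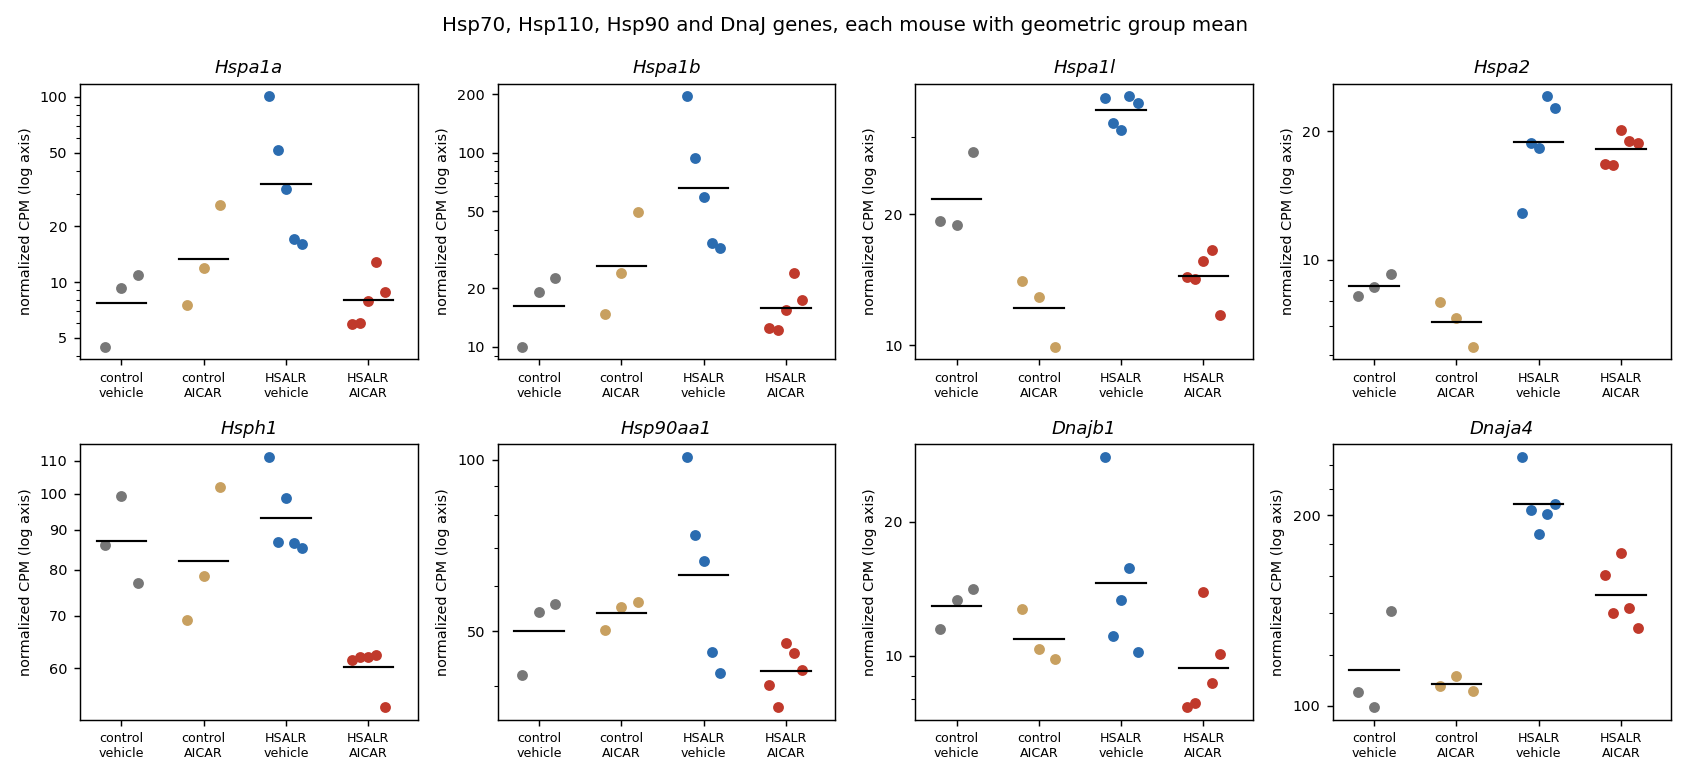
CPM on a log axis (y) of *Hspa1a*, *Hspa1b*, *Hspa1l*, *Hspa2*, *Hsph1*, *Hsp90aa1*, *Dnajb1* and *Dnaja4* in each mouse by group (x axis), with a line at the geometric mean of the group. *Hspa1a* spans 16.0 to 101 CPM within the HSALR vehicle group, whereas *Hspa2* separates the genotypes under both treatments.

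The chaperonin of the mitochondrial matrix is made of Hsp60 (*Hspd1*) and its lid Hsp10 (*Hspe1*), whose genes lie head to head and share a promoter and, in the annotation, an overlap. *Hspd1* was at 183, 178 and 166 CPM in control vehicle and 200.2, 207, 188, 186 and 196 CPM in HSALR vehicle mice, which did not overlap but did not pass the test (0.15 (adjusted p = 0.0916)). *Hspe1* was at 38.2, 37.5 and 35.6 and 43.5, 42.7, 41.5, 41.6 and 39.9 CPM in these groups and 39.5, 39.1, 36.6, 38.7 and 39.0 CPM in HSALR AICAR mice. It rose by 0.17 (SE 0.04, adjusted p = 0.00905) for genotype, lost without S450 (0.14, adjusted p = 0.0585), and changed by -0.12 (SE 0.04, adjusted p = 0.0329) with AICAR in HSALR, lost without S451, S452, S453, S460, S462 or S463 (adjusted p from 0.0506 to 0.0825). Both changes are small beside those of the cytosolic genes above.

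Among the other mitochondrial members, *Dnaja3* (Tid1), a partner of mortalin, rose with AICAR in HSALR, from 148, 156, 151, 156 and 156 to 176, 173, 174, 194 and 179.5 CPM, without overlap. The change was 0.23 (SE 0.04, adjusted p = 0.00194) in HSALR and 0.20 (SE 0.06, adjusted p = 0.0373) in controls, the latter lost without S446, S447, S448, S449 or S450 (adjusted p from 0.0622 to 0.14). *Dnajc15*, of the import motor, rose by 0.13 (SE 0.04, adjusted p = 0.0181) with AICAR in HSALR, and its genotype change with vehicle of 0.15 (SE 0.04, adjusted p = 0.023) was lost without S446, S450 or S452 (adjusted p from 0.0512 to 0.111); in controls AICAR gave 0.18 (SE 0.05, adjusted p = 0.0297), lost without S445, S446, S447, S448, S449 or S450 (adjusted p from 0.0503 to 0.114). *Dnajc28* went down with genotype (-0.26 (SE 0.07, adjusted p = 0.0125), lost without S450 (-0.20, adjusted p = 0.0802)) and up with AICAR in HSALR (0.24 (SE 0.06, adjusted p = 0.0112)), and without the *Krt14* libraries both calls were lost, at -0.03 (adjusted p = 0.92) and 0.05 (adjusted p = 0.775). *Dnajc30*, which is needed for ATP synthesis, did the opposite, at 0.25 (SE 0.05, adjusted p = 0.00315) and -0.24 (SE 0.05, adjusted p = 0.00165), and *Dnajc11*, of the inner membrane organising system, rose with genotype with vehicle (0.31 (SE 0.07, adjusted p = 0.0041)) and passed with AICAR in controls in DESeq2 (0.23, adjusted p = 0.0358) but not in edgeR (adjusted p = 0.0693). *Dnajc19* passed no test in edgeR.

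Beside these, a list of 32 genes of mitochondrial protein folding, import and respiration, of which 31 were found and tested, had 15 higher and 0 lower with AICAR in HSALR, beside 13.7% and 13% of all genes. With AICAR in controls it had 11 higher and 0 lower, beside 8.4% and 4.77%. Of the import channel, *Timm23* rose by 0.33 (SE 0.04, adjusted p = 6.79e-05) in HSALR and 0.37 (SE 0.05, adjusted p = 0.000686) in controls. For genotype the list had 5 higher and 3 lower under each treatment, near the shares of all genes (15.4% and 11.5% with vehicle, 12.2% and 9.64% with AICAR), with *Timm17a* at 0.44 (SE 0.06, adjusted p = 6.16e-05) with vehicle. The control calls of mitochondrial chaperones were fragile: 3 of 9 rose with AICAR in controls, 0 or 1 when any 1 mouse was left out.

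DnaJ proteins of types A and B are the partners that bring unfolded clients to Hsp70. *Dnaja4* was at 105, 99.4 and 141 CPM in control vehicle and 247, 204, 186, 200.5 and 208 CPM in HSALR vehicle mice. With AICAR it was at 107, 112 and 106 CPM in controls and 161, 140.3, 174, 142 and 133 CPM in HSALR mice. As for *Hspb3*, untreated HSALR mice were highest, treated HSALR mice next and controls lowest, except that the control S450, at 141 CPM, was within the range of treated HSALR mice. The changes were 0.86 (SE 0.12, adjusted p = 9.58e-05) and 0.47 (SE 0.12, adjusted p = 0.0103) for genotype and -0.48 (SE 0.10, adjusted p = 0.00284) for AICAR in HSALR. *Dnaja1*, the most heat-responsive of type A, fell with AICAR in HSALR (-0.41 (SE 0.11, adjusted p = 0.0121)) and *Dnaja2*, the constitutive one, was between 221 and 266 CPM and passed no test in edgeR.

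*Dnajb1*, the main stress-inducible Hsp40, was at 11.5, 13.4 and 14.1 CPM in control vehicle, 27.9, 11.1, 13.3, 15.7 and 10.2 CPM in HSALR vehicle and 7.67, 7.84, 13.9, 8.67 and 10.1 CPM in HSALR AICAR mice. S451 stood apart at 27.9 CPM and the HSALR groups overlapped. The AICAR change of -0.70 (SE 0.24, adjusted p = 0.042) was lost without S451, S453, S454, S455, S458, S462 or S463 (adjusted p from 0.0503 to 0.118), and it was -0.38 (adjusted p = 0.118) without S451. Genotype with vehicle gave 0.27 (adjusted p = 0.519).

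*Dnajb4*, an Hsp40 of muscle, was at 112, 114, 112, 106 and 116 CPM in HSALR vehicle mice and 73.0, 72.0, 88.7, 92.1 and 80.4 CPM in HSALR AICAR mice, beside 74.2, 79.6 and 103 CPM in control vehicle mice. It rose by 0.39 (SE 0.10, adjusted p = 0.00955) for genotype, lost without S445 (0.30, adjusted p = 0.0678), and fell by a log2 change of -0.47 (SE 0.09, adjusted p = 0.00117) with AICAR in HSALR, but it overlaps *Fubp1*. *Dnajb5* fell with AICAR in both genotypes, from 262, 264, 263, 296 and 258 to 171, 170.0, 193, 183 and 168 CPM in HSALR and from 219.9, 252 and 224 to 206, 125 and 129.6 CPM in controls. These changes were -0.60 (SE 0.11, adjusted p = 0.000994) and -0.60 (SE 0.14, adjusted p = 0.0118), the control call being lost without S449 (-0.49, adjusted p = 0.0624).

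*Dnajb6*, mutated in a limb-girdle muscular dystrophy and located at the Z-disc, moved up with AICAR in HSALR, against the direction of most cytosolic members. It was at 26.1, 28.3, 26.9, 29.2 and 29.5 CPM with vehicle and 36.0, 36.8, 31.4, 34.5 and 34.2 CPM with AICAR in HSALR, without overlap, and at 27.2, 28.9 and 28.2 and 29.7, 29.3 and 34.3 CPM in controls. The change was 0.30 (SE 0.06, adjusted p = 0.00126) in HSALR and 0.15 (adjusted p = 0.209) in controls. *Dnajb2*, a neuronal and muscle Hsp40 that binds ubiquitin, was the one cytosolic member lower in HSALR with vehicle, at 73.9, 68.2, 65.5, 63.1 and 57.8 CPM against 80.1, 86.4 and 76.9 CPM (-0.30 (SE 0.09, adjusted p = 0.0178)), lost without S446 (-0.26, adjusted p = 0.0832).

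In the endoplasmic reticulum, *Dnajb11*, a partner of BiP, was at 35.4, 36.9 and 36.4 CPM in control vehicle and 42.5, 49.2, 47.4, 45.9 and 44.7 CPM in HSALR vehicle mice. It was at 42.5, 44.8 and 44.8 CPM in control AICAR mice, so that it rose with genotype (0.34 (SE 0.05, adjusted p = 0.00023)) and with AICAR in controls (0.28 (SE 0.06, adjusted p = 0.00572)). With AICAR the genotype change was 0.16 (SE 0.05, adjusted p = 0.0363), lost without S447, S448, S449, S454 or S455 (adjusted p from 0.053 to 0.143). *Dnajb9*, which restrains the stress sensor IRE1, rose with genotype by 0.40 (SE 0.11, adjusted p = 0.0158), lost without S445 or S446 (adjusted p from 0.0542 to 0.0752), and *Dnajc1* rose with AICAR in HSALR (0.25 (SE 0.06, adjusted p = 0.00746)). *Dnajb12*, *Dnajb14*, *Dnajc3* and *Dnajc10* passed no test in edgeR.

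A list of 28 genes of endoplasmic reticulum stress gives the setting of these values. With vehicle 12 of 28 were higher and 1 lower in HSALR, beside 15.4% and 11.5% of all genes. With AICAR 6 were higher and 0 lower, beside 12.2% and 9.64%. Among them *Manf* rose by 0.91 (SE 0.11, adjusted p = 4.12e-05), *Sdf2l1* by 0.85 (SE 0.12, adjusted p = 0.00014) and *Xbp1*, the transcription factor downstream of IRE1, by 0.78 (SE 0.09, adjusted p = 2.29e-05) with vehicle. *Chac1*, a target of the PERK branch, fell by a log2 change of -2.03 (SE 0.54, adjusted p = 0.0112), and *Ddit3*, which encodes CHOP, did not pass (0.47 (adjusted p = 0.0766)). With AICAR in HSALR 3 rose and 3 fell, no larger shares than the 13.7% and 13% of all genes. *Sdf2l1* changed by -0.78 (SE 0.10, adjusted p = 9.87e-05) and *Atf4* by -0.43 (SE 0.07, adjusted p = 0.000567). In the other direction, *Ern1* in HSALR mice went from 12.25, 12.8, 11.6, 10.5 and 13.3 to 48.6, 43.1, 17.3, 25.3 and 33.4 CPM, without overlap. In controls 2 rose and 0 fell with AICAR, near the 8.4% and 4.77% of all genes.

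Type C DnaJ proteins share the J domain but lack the other regions common to types A and B, and they serve separate tasks. Of 24, 8 rose and 3 fell in HSALR with vehicle (15.4% and 11.5% of all genes) and 4 rose and 3 fell in HSALR with AICAR (12.2% and 9.64% of all genes). With AICAR in HSALR 7 rose and 2 fell (13.7% and 13% of all genes), and in controls 3 rose and 0 fell (8.4% and 4.77% of all genes). The counts for genotype with AICAR and for AICAR in controls are near the background. Higher with genotype under both treatments were *Dnajc4*, *Dnajc7*, which links Hsp70 and Hsp90, *Dnajc8*, of the spliceosome, and *Dnajc12*. *Dnajc8* was at 37.0, 34.8 and 38.3 CPM in control vehicle and 42.8, 46.4, 44.1, 47.9 and 43.9 CPM in HSALR vehicle mice, without overlap (0.29 (SE 0.05, adjusted p = 0.000666) with vehicle and 0.24 (SE 0.05, adjusted p = 0.00392) with AICAR). *Dnajc7* changed by 0.34 (SE 0.07, adjusted p = 0.00147) and 0.29 (SE 0.07, adjusted p = 0.00561). *Dnajc4* rose with AICAR as well, from 17.9, 19.0, 17.7, 20.4 and 19.8 to 23.3, 23.7, 22.4, 23.4 and 24.7 CPM in HSALR (0.31 (SE 0.05, adjusted p = 4e-04)). Its control change of 0.21 (SE 0.06, adjusted p = 0.0451) was lost without S445, S446, S447, S448, S449 or S450 (adjusted p from 0.0603 to 0.168), and its genotype change of 0.20 (SE 0.06, adjusted p = 0.0165) with vehicle was lost without S450 (0.18, adjusted p = 0.0764).

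*Dnajc27*, which encodes a Rab-like GTPase with a J domain, was lower in HSALR under both treatments. It was at 105, 98.9 and 92.0 CPM in control vehicle and 77.8, 70.4, 65.7, 64.8 and 68.0 CPM in HSALR vehicle mice. With AICAR it was at 94.0, 96.7 and 106 CPM in controls and 81.5, 69.9, 81.9, 86.6 and 77.2 CPM in HSALR mice. No HSALR mouse reached the lowest control mouse, at 92.0 CPM. The genotype change was -0.51 (SE 0.07, adjusted p = 0.000166) with vehicle and -0.32 (SE 0.08, adjusted p = 0.00787) with AICAR, and AICAR in HSALR gave 0.20 (SE 0.07, adjusted p = 0.0384), lost without S452, S453, S454, S458, S459, S460, S462 or S463 (adjusted p from 0.052 to 0.0995).

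*Dnajc13*, of endosomal sorting, was also lower in HSALR, at 52.9, 52.5, 52.2, 42.6 and 49.5 CPM against 64.1, 64.6 and 57.6 CPM with vehicle and 54.1, 50.5, 53.4, 55.3 and 54.8 CPM against 62.1, 61.9 and 75.6 CPM with AICAR. The changes were -0.31 (SE 0.08, adjusted p = 0.00814) and -0.31 (SE 0.08, adjusted p = 0.0111), the latter lost without S449 (-0.21, adjusted p = 0.0758). *Dnajc5*, which encodes the cysteine string protein of synaptic vesicles, rose with genotype with vehicle (0.33 (SE 0.08, adjusted p = 0.0059)) and *Dnajc12*, the chaperone of aromatic amino acid hydroxylases, by 0.30 (SE 0.08, adjusted p = 0.0151), lost without S446 (0.26, adjusted p = 0.0707), and by 0.27 (SE 0.08, adjusted p = 0.0344) with AICAR, lost without S447, S448, S449, S454, S455 or S463 (adjusted p from 0.0548 to 0.14). *Dnajc21*, of ribosome assembly, was lower in HSALR with AICAR by a log2 change of -0.20 (SE 0.06, adjusted p = 0.0321), lost without S447, S449, S454, S455 or S463 (adjusted p from 0.054 to 0.188) and at -0.12 (adjusted p = 0.188) without S449. With AICAR in HSALR *Dnajc16* rose by 0.26 (SE 0.08, adjusted p = 0.0206), lost without S454 (0.24, adjusted p = 0.0567). *Dnajc18* rose by 0.18 (SE 0.04, adjusted p = 0.00513). *Dnajc8* changed by -0.13 (SE 0.04, adjusted p = 0.0468), lost without S452, S453, S454, S455, S458, S459, S460 or S463 (adjusted p from 0.0552 to 0.111). In controls *Dnajc25* rose by 0.33 (SE 0.09, adjusted p = 0.0269), lost without S445, S446, S448 or S449 (adjusted p from 0.0599 to 0.116). The remaining 5 (*Dnajc2*, *Dnajc9*, *Dnajc14*, *Dnajc17* and *Dnajc24*) passed no test in edgeR with all mice. *Dnajc9* passed for genotype with AICAR in DESeq2 (0.15, adjusted p = 0.0487) and in edgeR without S447 (0.22, adjusted p = 0.0274), and for genotype with vehicle in edgeR without S451 (0.17, adjusted p = 0.0311).

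Of the 3 genes that share a name but not the fold, *Hspbp1*, an exchange factor of Hsp70, rose with genotype with vehicle (0.19 (SE 0.06, adjusted p = 0.0384)), lost without S446, S450, S451, S452, S458 or S459 (adjusted p from 0.0507 to 0.173). *Hspb11*, a part of the intraflagellar transport complex, and *Hspbap1* passed no test in edgeR, although *Hspb11* did with AICAR in controls in DESeq2 (0.34, adjusted p = 0.0311). *Hspbap1* had the lowest level of all 65 per transcript length in control vehicle mice, at 0.681 CPM per kilobase.

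**Figure D4:**
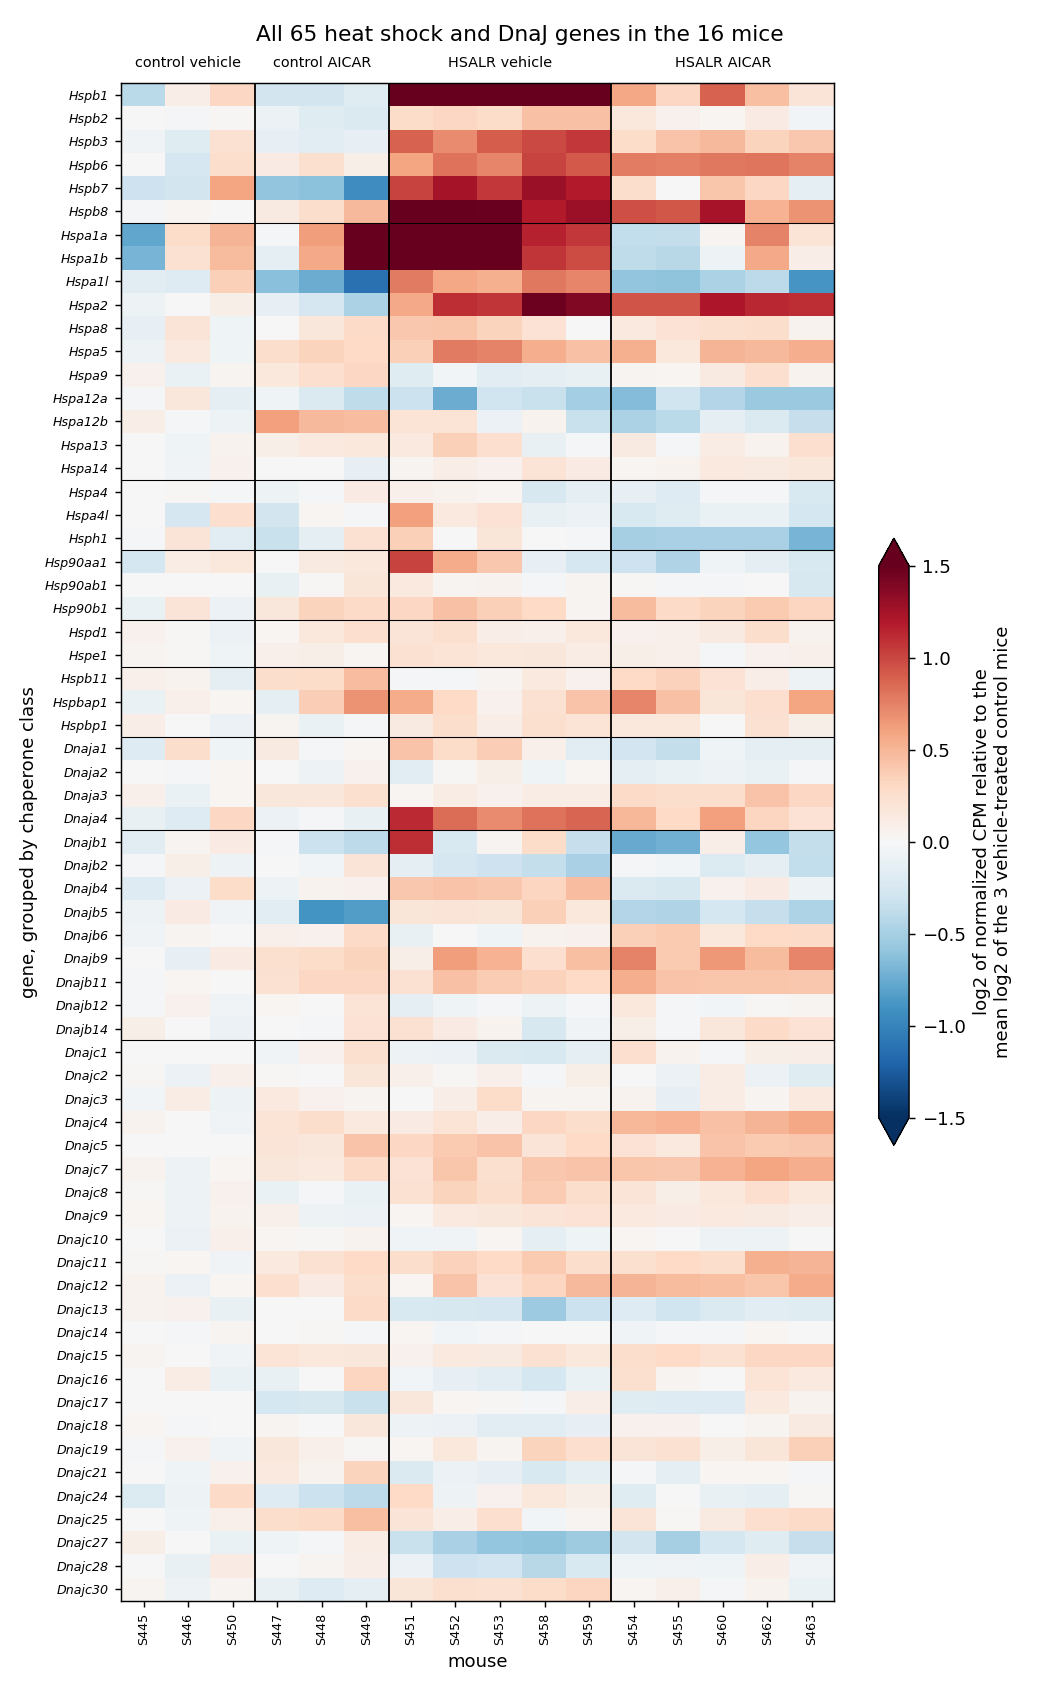
Log2 CPM of the 65 chaperone genes (rows, by family) in each of the 16 mice (columns, by group), relative to the mean log2 CPM of the 3 control vehicle mice, with the colour limited at 1.5 in either direction. The small heat shock proteins are red in all HSALR vehicle mice and, *Hspb6* apart, paler in HSALR AICAR mice; *Hspa1a* and *Hspa1b* are red in HSALR vehicle mice and in control AICAR S449.

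Genes with and without heat shock element letters in their promoter window were counted in each comparison. The 12 genes without a window, *Hsp90aa1*, *Hspa8* and *Hspb2* among them, were in neither set. Of all genes, 15.4% were higher and 11.5% lower for genotype with vehicle and 12.2% and 9.64% for genotype with AICAR. For AICAR these shares were 13.7% and 13% in HSALR and 8.4% and 4.77% in controls. With vehicle, 9 of 15 genes with the letters rose in HSALR and 1 fell (median log2 fold change 0.39), and of 38 without them 12 rose and 4 fell (median 0.11). With AICAR in HSALR, 10 of 15 fell and 2 rose (median -0.47), beside 6 and 6 of 38 (median 0.02), which are near the background. With AICAR in controls 0 of 15 passed in edgeR (0 at an unadjusted p under 0.05, and 0 called by DESeq2), beside 6 higher and 3 lower of 38. In the genotype comparison with AICAR 5 rose and 2 fell of 15, beside 6 and 3 of 38. The 15 include the paired genes *Hspa1a* and *Hspa1b* and *Hspd1* and *Hspe1*, whose windows are copies or overlap. The letters were counted over all windows of a gene, so a gene with several starts had more chances to match. These counts are a description and no test was made of the letters.

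**Figure D5:**
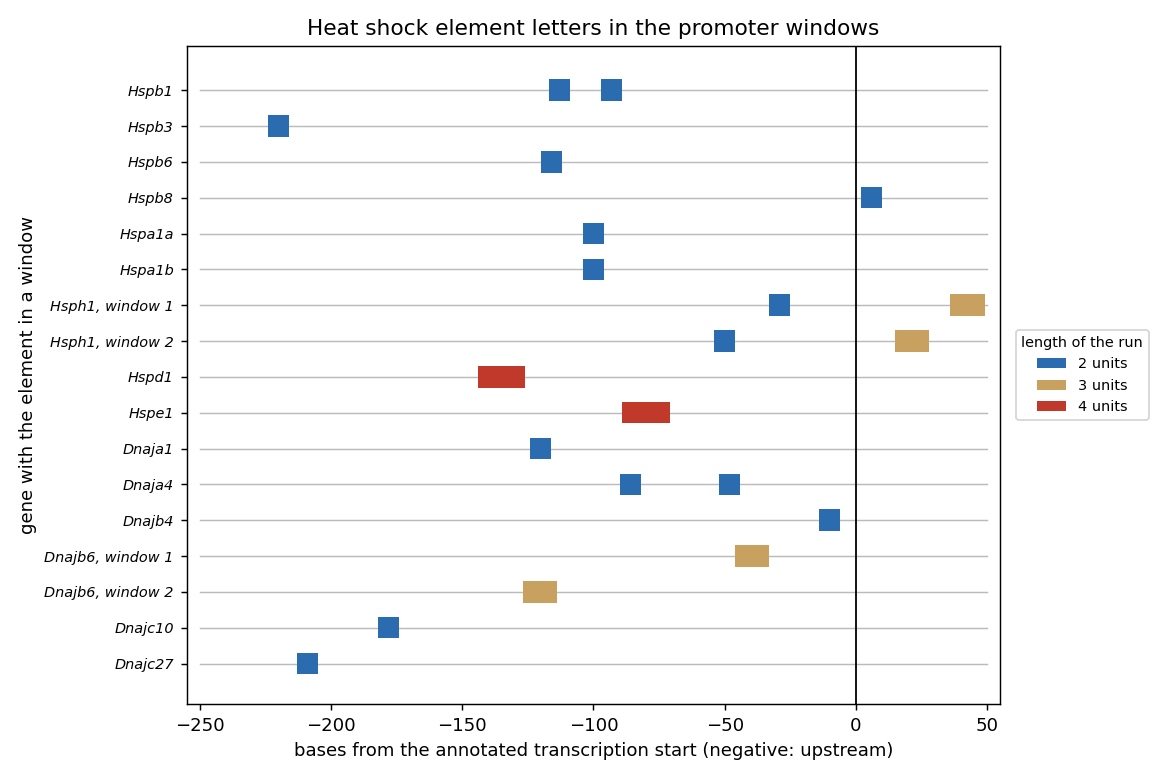
Position of the heat shock element letters (x axis, bases from the annotated start of transcription) in the promoter windows of the 15 genes that hold them (y axis); blue marks stretches of 2 units, tan 3 units and red 4 units. Only *Hspd1* and *Hspe1* hold a stretch of 4 units, and *Hsph1* and *Dnajb6* hold 3.

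The factors and partners of these chaperones were followed in a list of 62 genes, 60 of them tested (heat shock factors, Bag proteins, exchange factors, Hsp90 co-chaperones, prefoldin and the cytosolic chaperonin CCT). In HSALR with vehicle 22 rose and 4 fell, beside 15.4% and 11.5% of all genes. In HSALR with AICAR 10 rose and 5 fell, near the 12.2% and 9.64% of all genes. AICAR in HSALR gave 11 higher and 7 lower, near the 13.7% and 13%. With AICAR in controls 8 rose and 0 fell, beside 8.4% and 4.77%. *Hsf1*, the main factor of the heat shock response, did not pass in its mRNA (-0.04 (adjusted p = 0.759) with vehicle), though its activity is set by protein state. *Hsf2*, a related factor, was at 27.0, 26.2 and 29.1 CPM in control vehicle and 48.2, 44.9, 43.9, 42.8 and 46.8 CPM in HSALR vehicle mice, without overlap. It rose by 0.72 (SE 0.06, adjusted p = 3.86e-07) with vehicle and 0.65 (SE 0.05, adjusted p = 1.94e-06) with AICAR. *Hsf4* fell by a log2 change of -0.42 (SE 0.11, adjusted p = 0.00932) in HSALR with vehicle and rose by 0.56 (SE 0.09, adjusted p = 0.000629) with AICAR in HSALR.

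*Bag3*, the partner of Hspb8, was at 114, 121 and 125 CPM in control vehicle, 207, 187, 164, 167 and 159.7 CPM in HSALR vehicle and 129.7, 114, 153, 148 and 142 CPM in HSALR AICAR mice. It rose by 0.56 (SE 0.10, adjusted p = 0.000996) for genotype and fell by a log2 change of -0.37 (SE 0.09, adjusted p = 0.00649) with AICAR in HSALR. *Cryab*, the small heat shock protein αB-crystallin of the Z-disc, which overlaps *Hspb2*, rose by 0.54 (SE 0.16, adjusted p = 0.0181) and fell by a log2 change of -0.70 (SE 0.13, adjusted p = 0.00145) in the same comparisons. It was not among the 6 small heat shock proteins counted above, which were picked by symbol. With vehicle it was at 710, 687 and 1080 CPM in control and 1246, 1189, 1240, 1238 and 1091 CPM in HSALR mice. With AICAR it was at 613, 680 and 575 CPM in control and 741, 809, 827, 808 and 516 CPM in HSALR mice, which overlapped. *Sil1*, the exchange factor of BiP, rose by 0.58 (SE 0.11, adjusted p = 0.00112) and the prefoldin subunit *Pfdn2* by 0.55 (SE 0.05, adjusted p = 2.87e-06) with vehicle. *Fkbp5*, a glucocorticoid-responsive partner of Hsp90, rose by 1.84 (SE 0.32, adjusted p = 0.00071) with AICAR in HSALR, where its level went from 20.5, 35.1, 21.4, 25.5 and 11.9 to 95.7, 66.8, 103, 71.4 and 72.7 CPM. In controls it was at 17.5, 19.75 and 53.0 CPM with vehicle and 61.7, 41.5 and 81.5 CPM with AICAR, with overlap at S450.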

How the data were processed

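Messenger RNA of *gastrocnemius* muscle was sequenced from stranded libraries. The files hold read counts per gene, deposited by the authors: single-end reads were mapped to mm10 with STAR 2.5.2a, reads with several equal hits were given 1 location, and reads starting in the exons of a gene were counted with QuasR. Near-identical genes may therefore exchange reads, and the use of strand in the counting is not given in the sources used here. Of the identifiers, 24374 matched a symbol and 80 did not. The 4 groups follow the sample labels, and each library is 1 mouse.

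The tests were run with edgeR 4.0.16 under R 4.3.3 (TMM scaling, filterByExpr, glmQLFit and glmQLFTest over all groups in 1 design). Genotype was compared within treatment, treatment within genotype, and the difference between the treatment effects as an interaction. A gene passed at an adjusted p under 0.05. CPM values are scaled by TMM and SE is taken from the fit. The alternatives were RLE, upper-quartile and library-size scaling, DESeq2 1.42.0, limma 3.58.1, robust dispersion, no filter, a minimum of 10 counts in every library, fits of the compared groups alone, marker covariates and each mouse left out. Leaving out the 6 libraries with *Krt14* above 1 CPM was chosen after seeing the data. The code was tested on simulated data. Promoter windows are from RefSeq (GRCm38.p6).

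Members and lists were chosen with earlier results of these data known. Any member could be named; values per mouse are given for up to 6 higher and 6 lower members of each comparison by fold change and for the 2 highest per family by level per kilobase in control vehicle mice, and some further members were chosen after their values were seen. Of other lists, genes with a log2 fold change of at least 0.5 could be named, up to 6 per comparison; others were chosen after their values were seen. Depth was 64890014 to 81987726 counts, and p-values measure the spread between mice.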

Additional observations from a re-analysis of the deposited data

Results flagged for a closer look

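In 4 of 60 groups of mice, those of 5 mice over 27 of the named genes and 3 ratios of paired genes, 1 mouse stood apart from the others of its group by Dixon's criterion, where chance gives about 1 in 20, or 3. *Dnajb11* was at 52.87 CPM in the HSALR AICAR mouse S454 and between 48.0 and 48.7 in the others. *Dnajb5* was at 296.2 CPM in the HSALR vehicle mouse S458 and between 258 and 264 in the others. *Dnajc28* was at 49.55 CPM in the HSALR AICAR mouse S462 and between 44.1 and 44.5 in the others. *Hsph1* was at 53.53 CPM in the HSALR AICAR mouse S463 and between 61.5 and 62.3 in the others.

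The effect of AICAR differed between the genotypes, by the interaction in edgeR, for *Hspb1* by a log2 difference of -1.23 (SE 0.24, adjusted p = 0.03) and for *Hspa12b* by -0.85 (SE 0.16, adjusted p = 0.0288), HSALR minus control. Over 27 alternatives the first passed the test in 14 and the second in 18.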

How the results depend on the processing

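Counts of chaperone genes are given here as they moved from the main analysis. AICAR in controls gave 3 higher and 5 lower with upper-quartile scaling, 2 higher with library-size scaling, 4 higher with no filter, 2 higher and 1 lower (1164 genes in all) in a fit of these groups alone, and 3 higher and 1 lower (1052 genes) with slow fibre markers as a covariate. AICAR in HSALR gave 6 higher with library-size scaling and 4 higher (2292 genes) with epidermis markers as a covariate. The interaction gave 536 genes with 6 chaperone genes lower in DESeq2, 57 genes and 1 lower with epidermis markers, and 29 genes and 0 lower in edgeR with slow fibre markers, with which genotype after AICAR gave 2 lower. Without the 6 *Krt14* libraries, edgeR called 904 genes (11 chaperone genes higher, 0 lower) for genotype with vehicle, 899 (2 higher, 12 lower) for AICAR in HSALR, 697 (0 higher, 0 lower) for AICAR in controls and 0 genes (0 lower) for the interaction. Fewer libraries enter that fit, and the cause of the other changes was not tested.

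With each mouse left out in turn, genotype with vehicle gave 21 to 26 higher and 3 to 6 lower. Genotype with AICAR gave 2214 to 3790 genes and 2 to 5 lower. AICAR in HSALR gave 8 to 12 higher and 15 to 19 lower. AICAR in controls gave 1143 to 1726 genes with 2 to 4 higher and 1 to 3 lower. The interaction gave 15 to 371 genes and 0 to 4 lower. On the log2 scale, the ratio of *Hsp90aa1* to *Hsp90ab1* then changed with AICAR by -0.5985 to -0.3066 in HSALR and by -0.0569 to 0.1553 in controls, that of *Hspd1* to *Hspe1* differed between genotypes with AICAR by -0.081 to 0.0491, and that of *Hspa1a* to *Hspa1b* by -0.0407 to 0.0052 with AICAR and 0.1058 to 0.1668 with vehicle; changes of sign are between values that passed no test. For the named genes no alternative reversed a fold change that had passed the test; of values that had not, AICAR in HSALR gave 0.18 for *Hspb6* and 0.50 for *Hspa2* without the *Krt14* libraries, in place of -0.05 and -0.08. Of the called changes, with a mouse left out, 323 values kept their call and 59 lost it, and under the other settings 478 kept it and 60 lost it, of which 22 and 23 were without the *Krt14* libraries. No paired analysis was possible because mice of different groups share no identifier. With 3 control mice a group, small control effects were uncertain.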
